A study of Mus musculus with 3 samples.

Results

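The genes described here code for coagulation factors and for the proteins that hold coagulation in check: *F2*, *F3*, *F5*, *F7*, *F8*, *F10*, *F13a1*, *Thbd*, *Pros1* and *Tfpi*. They were found by the gene name that the scanner files give each probe. That name was carried by 16 probes of these 10 genes, out of 41174 probes of 27845 gene names on the array. The arrays held the choroid plexus epithelium (CPE), the cell layer that lines the choroid plexus in the brain ventricles and makes cerebrospinal fluid. CPE cells were cut by laser from frozen brain sections of 3 healthy adult C57BL/6 mice, and the RNA was amplified. Each mouse was 1 array, on a slide of its own. CPE RNA carried the red dye. The green dye marked a common reference, prepared from choroid and retinal pigment epithelium (RPE) of the eyes of wild type mice. The reference was 1 RNA, so differences between animals in RPE and choroid are not part of any error given below, and dyes were not swapped, so a preference of a probe for a dye stays in its ratio.

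Coagulation starts when tissue factor (*F3*), a membrane protein, meets factor VII (*F7*) from the blood. The pair activates factor X (*F10*), which with its cofactor, factor V (*F5*), cuts prothrombin (*F2*) to thrombin. Thrombin turns fibrinogen into fibrin and switches on factor VIII (*F8*), the cofactor on the amplifying route, and factor XIII (*F13a1* codes for its A subunit), which crosslinks fibrin. Tissue factor pathway inhibitor (*Tfpi*) blocks the start. Thrombomodulin (*Thbd*) on the vessel wall binds thrombin and turns it towards activation of protein C, and protein S (*Pros1*) helps protein C to cut factors V and VIII. Most soluble factors reach the plasma from the liver, while *F3*, *Thbd* and *Tfpi* are best known from cells in and around vessel walls. The choroid plexus has fenestrated capillaries, and its epithelium stands between blood and cerebrospinal fluid.

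The arrays differed in signal over background. Between 46.0% and 85.6% of probes were well above background in the CPE channel, lowest in mouse 2 and highest in mouse 3, and between 68.6% and 84.2% in the reference. Markers of the labelled cell type were mostly higher in CPE than in the reference. Of 10 CPE marker genes on the array, all 10 were tested and 9 were higher in CPE. Markers of other cells gave signal in CPE too. Over the 90th percentile of intensity there were 6 of 7 stroma markers, 2 of 3 of red blood cells and 2 of 4 of smooth muscle and pericytes. So were 3 of 8 markers of endothelium and 2 of 8 of macrophages. Against the reference 5, 3, 2, 0 and 4 markers of these lists, in this order, were lower. In the endothelium list 1 was higher, and in the others 0. The part of these cells in the members' levels was not tested. No member spot was an outlier or saturated in any channel. For the members, 2 measures are given. The first is the percentile of the mean intensity among all probes, in classes that begin at the 90th percentile for high, at the 50th for moderate and at the 10th for low, with very low beneath. Probes hybridise with unequal strength, and for that reason this rank does not say which of the 10 genes had more transcript. The second is the log2 ratio of CPE over reference, with the standard error (SE), a 95% interval and the limma test adjusted over all tested probes. To pass the threshold a probe needed an adjusted p below 0.05 together with a 2-fold change or more.

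Coagulation genes in the CPE fell into 3 patterns. *F5* was both in the high class and far above the reference, at 13.3-fold. *F3*, *Thbd*, *Pros1*, *Tfpi* and *F13a1* were measured in both tissues, and their mean ratios lay below 0, with *F13a1* past the threshold at 2.10-fold lower. With median centring a probe each of *F3*, *Thbd* and *Pros1* lay above 0, and *F13a1* lost its call there and under 2 other settings. Probes for *F2*, *F7*, *F8* and *F10* were too dim in both channels to be tested. Well above background on all arrays were 8 of the 16 member probes in CPE, against 44.9% of all probes, and 10 of 16 in the reference, against 61.5% of all probes. Of the 10 member probes tested, which covered 6 genes, 1 was higher and 1 lower in CPE, and 8 were not past the threshold. Among all 25840 probes tested, 17.3% passed, 7.09% as higher and 10.2% as lower, so the members' shares were near those of the array as a whole. The median ratio of the tested member probes was −0.56, against −0.04 over all tested probes. Among the 16 member probes, those high in CPE were the *F5* probe and 1 of the *F3* probes, so that 2 of the 10 genes had a high probe. Of all probes, not genes, 10% are high, which the limit of the class sets.

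**Figure D1:**
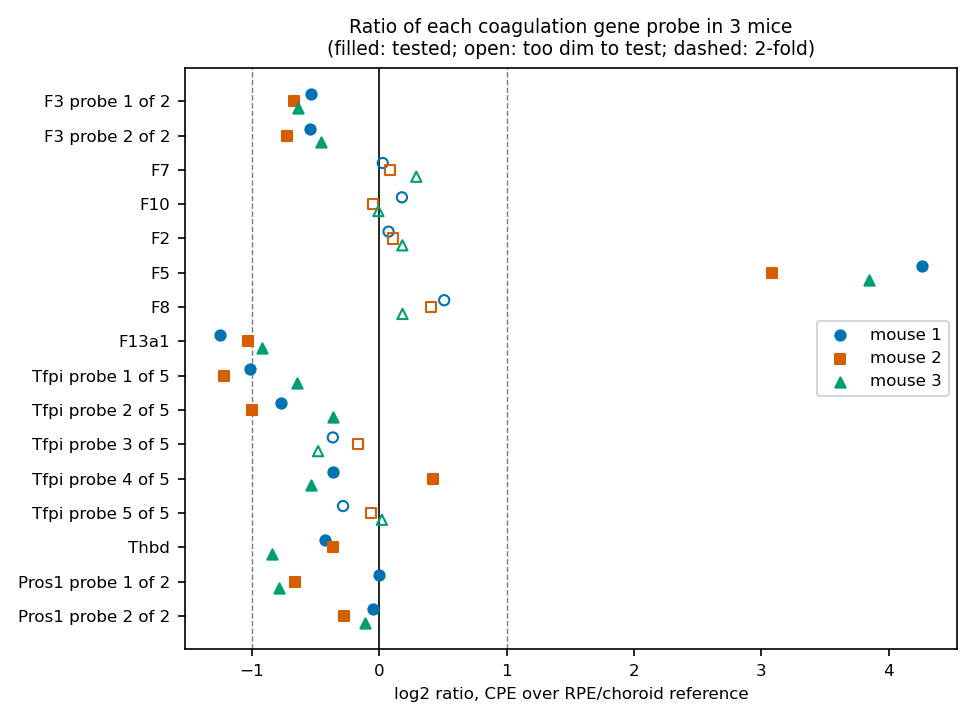
Log2 ratio of CPE over the RPE/choroid reference (x axis) for each of the 16 probes (y axis, probes of a gene numbered from its 5′ end), with 1 point per mouse. Filled points belong to tested probes, open points to probes too dim to test, and dashed lines mark 2-fold. *F5* lay between 3.08 and 4.26 in the 3 mice, far to the right of all others, and the 3 mice of *F13a1* lay between −1.25 and −0.92.

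**Figure D2:**
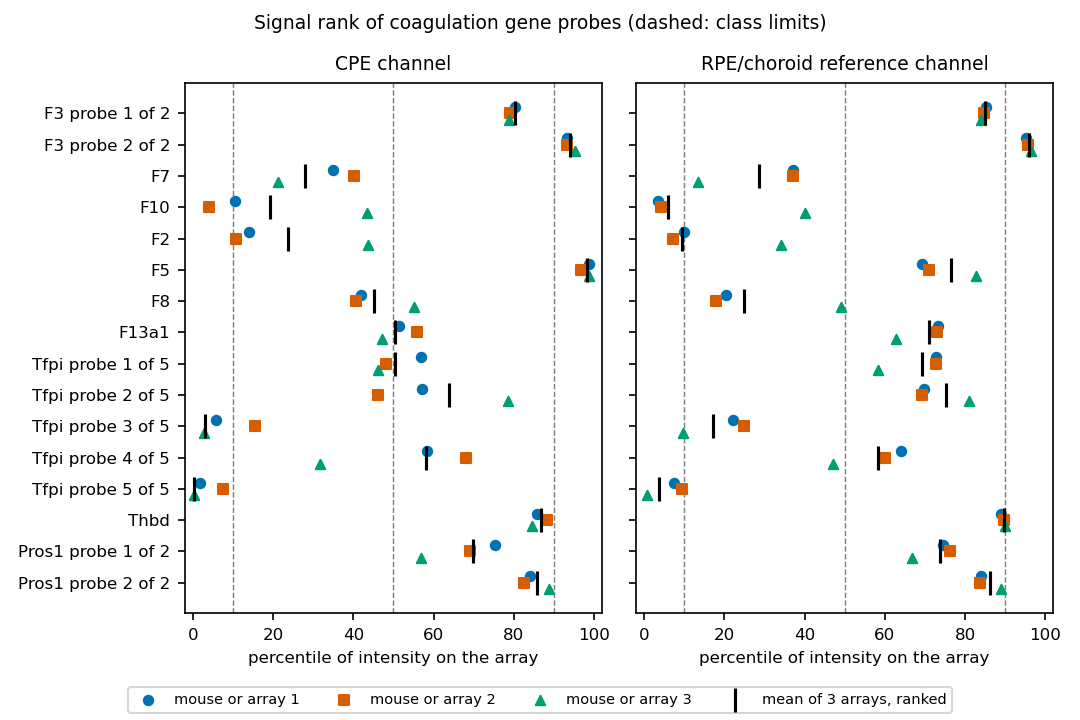
Percentile of intensity on the array (x axis) for the same probes in the CPE channel (left) and in the reference channel (right), with 1 point per mouse or array and a bar for the rank of the mean. Dashed lines mark the limits of the classes at 10, 50 and 90. *F5* and the second *F3* probe were high in every mouse, and probes for *F10* and *F2* were at higher ranks on array 3 than on the other arrays in both channels.

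*F3*, the starter of the cascade, was measured by a pair of probes on chromosome 3 of build mm8, plus strand. The first covers 121726400 to 121726459 and the second 121726440 to 121726499, so that they share 20 bp and are close to a repeat of 1 measurement. The second was in the high class, at percentiles 93.2, 93.2 and 95.1 in mice 1, 2 and 3 and at 94.0 for the mean. Its CPE intensities were 3393, 2119 and 3772 in the same mice, above background in each. The reference was high at this probe as well, at percentile 95.9. The first probe ranked lower in CPE, at 80.3, with the mice between 78.8 and 80.3, and at 85.0 in the reference.

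The *F3* ratios were below 0 in every mouse. They were −0.53, −0.67 and −0.64 at the first probe and −0.54, −0.72 and −0.46 at the second. The means were −0.61 (SE 0.15, n = 3, interval −0.96 to −0.27, adjusted p = 0.0145) and −0.58 (SE 0.15, n = 3, interval −0.93 to −0.22, adjusted p = 0.0206). Both intervals excluded 0 and also a 2-fold change. Direction depended on the scaling. Centring each array on its median, in place of loess, gave −0.10 at the first probe (adjusted p = 0.848) and 0.13 at the second (adjusted p = 0.814).

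The 3 proteases of the cascade, all made as inactive precursors, were at the limit of the measurement. The *F7* probe (chromosome 8, 13035264 to 13035323, plus strand) had CPE intensities of 99.9, 92.7 and 438 and was well above background in mouse 3 alone, and on 0 arrays in the reference. The *F10* probe lies further along the same strand (13055751 to 13055810) and had CPE intensities of 84.1, 74.7 and 628, with reference intensities of 90.6, 89.5 and 339.9. The *F2* probe (chromosome 2, 91426267 to 91426326, minus strand) had CPE intensities of 85.8, 79.2 and 628 and reference intensities of 105, 95.9 and 321. *F10* and *F2* passed the background flag on array 3 alone, in both channels at once. That is the array on which 85.6% of all CPE probes and 84.2% of all reference probes passed, and the part of that array's signal in these values was not tested. The ratios of the 3 genes lay between −0.05 and 0.29 over all mice, and none was tested. Liver transcripts gave the same picture, as *Apoa1* and *Apoh*, the 2 of 4 liver markers on the array, were not tested either, and neither passed the background flag on all arrays in a channel. For these proteases a level below what the probes can detect cannot be told from no transcript.

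*F5*, the cofactor of factor X, stood out. Its probe (chromosome 1, 166046272 to 166048460, plus strand) spans 2189 bp of the genome, longer than a probe, so the file places its ends in separate stretches. CPE intensities were 15525 in mouse 1, 4421 in mouse 2 and 12478 in mouse 3. On the same arrays the reference gave 409.8, 417 and 591. Every CPE value was above every reference value, with mouse 2 the lowest, and both channels were well above background on all arrays. The level after normalization between arrays was 13.24 ± 0.77 in CPE and 8.89 ± 0.35 in the reference (log2, SD, n = 3). In CPE the probe lay at percentiles 98.7, 96.9 and 98.8, and the mean at 98.3. In the reference it was moderate, at 69.3, 71.0 and 82.7, and the mean at 76.4.

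Ratios for *F5* were 4.26, 3.08 and 3.85, with a mean of 3.73 (SE 0.23, n = 3, interval 3.19 to 4.27, adjusted p = 3.31e-05), which is a 13.3-fold difference. From the top, it was the ratio of rank 33 among 25840 tested probes, or 0.128% of them, and of rank 30 among 17662 genes when each is given by its brightest probe. The SD between mice, 0.60, was larger than at most probes. The median SD of all tested probes was 0.26, and 91.5% of them had a lower SD than *F5*. Size and call did not rest on a single mouse, since leaving out each in turn gave 3.46 to 4.05, nor on centring, which gave 4.38. Platelets also carry factor V. Of 6 platelet and megakaryocyte genes 4 were on the array, 0 passed the background flag in all CPE samples, and *Gp9*, the only one tested, had a ratio of −0.14. Of those not tested, *Itga2b* passed the flag in 2 CPE samples and on 1 reference array, with ratios of 1.41, 0.55 and −0.16. Ratios were 0.52, 0.15 and 0.13 for *Gp6* and 0.25, 0.11 and −0.25 for *Gp1bb*. Summed levels of the 4 platelet and megakaryocyte genes were 431 to 977 in CPE and 402 to 1007 in the reference, and their part in the *F5* ratio was not tested.

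The 3 genes whose ratios lay nearest to those of *F5* over the 3 mice, among 17568 tested probes with a gene symbol, were *Aplp1*, *Slc29a4* and *Igf2*. *Aplp1*, a relative of the amyloid precursor protein, had ratios of 4.30, 3.47 and 3.73, at a Euclidean distance of 0.405 from *F5*. *Slc29a4*, a monoamine transporter of the plasma membrane, had 3.97, 3.14 and 3.51, at a distance of 0.452. *Igf2*, a growth factor, had 3.61, 3.17 and 3.69, at 0.677, and was saturated in CPE on all 3 arrays, so its ratio is a lower bound. The distance of *Igf2*, and so its place, rests on these saturated values. Likeness over 3 arrays is a description. All 3 genes had their lowest ratio in mouse 2, as *F5* did. They were chosen by their distance to the ratios of *F5*, so this is no separate finding.

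*F8* codes for the other cofactor. Its probe (chromosome X, 71463202 to 71464090, minus strand) had CPE intensities of 110.3, 95.9 and 767 and reference intensities of 122, 115 and 372. It was well above background in CPE in mice 1 and 3 and in the reference on array 3, and was not tested. Ratios were 0.51, 0.40 and 0.18. Percentiles in CPE were 41.9, 40.7 and 55.2, at the low class for the mean (45.1), and the reference was low too, at 24.9.

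*F13a1* was the member past the threshold in the lower direction. Its probe (chromosome 13, 36874811 to 36874870, minus strand) had CPE intensities of 158, 120.1 and 621 and reference intensities of 333, 333 and 510.4. Ratios were −1.25, −1.03 and −0.92, below 0 in all 3 mice, with a mean of −1.07 (SE 0.16, n = 3, interval −1.43 to −0.70, adjusted p = 0.00164), or 2.10-fold lower in CPE. Here and below, fewer cells of a type and less RNA per cell cannot be told apart. The percentile fell from 71.0 in the reference to 50.3 in CPE. The probe was well above background in CPE in all 3 mice, but dim. When only probes well above background in CPE were ranked, it lay at percentile 3.72. The call is close to the limit of 2-fold. It was lost with no background correction (−0.91), with median centring (−0.98) and without mouse 1 (−0.98), with the adjusted p between 0.00634 and 0.0274 in these. Factor XIII A is a known product of tissue macrophages. Of 8 macrophage markers on the array 7 were tested, of which 0 were higher and 4 lower in CPE (*Csf1r*, *Cd68*, *Lyzs* and *Emr1*), with a median ratio of −1.18. The other tested markers were not past the threshold and differed in direction. Their means were −0.46 for *Aif1*, −0.70 for *Mrc1* and 0.56 for *Cx3cr1*. The summed level of the 8 markers was 8036 to 8820 in CPE and 58030 to 64373 in the reference. *Lyzs*, with a ratio of −3.40, made up most of it, and without it the sums were 2577 to 3659 in CPE and 6295.5 to 7361 in the reference. *Cd163* was well above background in CPE on 1 array, and all other markers of the list on all 3. Their part in the *F13a1* ratio was not tested.

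The mean ratios of the 3 inhibitors and anticoagulants lay below 0, and 0 of their probes were past the threshold. *Tfpi*, the inhibitor of the start, had 5 probes on the minus strand of chromosome 2, all 60 bp long. From the 5′ end they cover 84274542 to 84274601, 84254644 to 84254703, 84243800 to 84243859, 84241704 to 84241763 and 84239540 to 84239599. The first and second carry the accession of the RefSeq transcript, and the other 3 carry accessions that were not matched to a gene in RefSeq. The probes gave different answers. The first had ratios of −1.02, −1.22 and −0.65 and a mean of −0.96 (SE 0.17, n = 3, interval −1.36 to −0.56, adjusted p = 0.00393), or 1.95-fold lower. The second had −0.77, −1.0 and −0.36 and a mean of −0.71 (SE 0.18, n = 3, interval −1.12 to −0.30, adjusted p = 0.0156). Neither was past 2-fold, and neither was well above background in CPE in mouse 2, where the intensities were 100.3 and 96.9.

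The fourth *Tfpi* probe had ratios of −0.36, 0.42 and −0.54, which lie on both sides of 0. Its mean was −0.16 (SE 0.21, n = 3, interval −0.65 to 0.33, adjusted p = 0.589), and without mouse 3 it was 0.029. The third probe was well above background in CPE in 0 mice and in the reference on 2 arrays, and the fifth on 0 arrays of either channel. The first *Tfpi* probe did pass the threshold with the scanner's own log ratio (−1.69), with array weights (−1.02) and without mouse 3 (−1.12). Like the second, it was tested because the reference, where it is brighter, was above background on all arrays, and both drop out when both channels must be. In CPE the 3 tested probes were moderate, at percentiles 50.5, 63.7 and 58.0.

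The difference between the ends of *Tfpi* was larger in mouse 2 than in the others. Subtracting the fourth probe from the first, 32838 bp apart, gave −0.65, −1.64 and −0.11 in mice 1, 2 and 3. That made mouse 2 lower than the mean of the other two by 1.26. The first probe was not well above background in CPE in mouse 2, so the values for that mouse rest on a signal near background. Over 4256 genes with tested probes at least 100 bp apart, the same 5′ minus 3′ difference had medians of 0.10, −0.20 and 0.09, and mouse 2 differed from the mean of the other mice by a median of −0.29. A difference as low as that of *Tfpi* was found in 6.11% of these genes. In mouse 2, then, probes towards the 5′ end were lower in CPE at many genes, and the part of this in the *Tfpi* ratios was not tested.

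**Figure D3:**
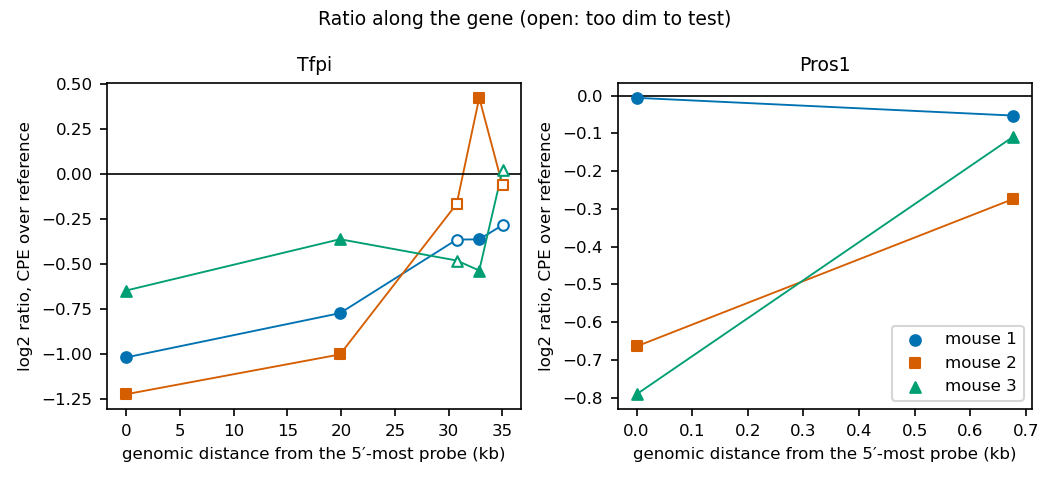
Log2 ratio of CPE over reference (y axis) against the distance in kb from the 5′-most probe along the genome (x axis) for *Tfpi* (left) and *Pros1* (right), with 1 line per mouse and open points for probes too dim to test. In *Tfpi* the ratio of mouse 2 was −1.22 at the first probe, where its CPE signal was not well above background, and 0.42 at the fourth. In *Pros1* it differed least between the probes in mouse 1.

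*Thbd*, which codes for thrombomodulin, had 1 probe (chromosome 2, 148095940 to 148095999, minus strand). CPE intensities were 1469, 1092 and 1369 and lay well above background, with percentiles of 85.8, 88.2 and 84.4 and 86.8 for the mean. The reference lay at 89.7. Ratios were −0.43, −0.36 and −0.84, all below 0, with a mean of −0.54 (SE 0.17, n = 3, interval −0.93 to −0.16, adjusted p = 0.0348), and with median centring the mean was 0.050 (adjusted p = 0.936), so the direction flipped. Thrombomodulin is a marker of endothelium. Of 8 endothelial markers on the array all 8 were tested, of which 1 was higher (*Tie1*) and 0 lower in CPE, with a median of 0.14. The markers differed, with means from −0.54 for *Cldn5* to 1.21 for *Tie1*. All 8 were well above background in every CPE sample. Their summed levels were 11794 to 15069 in CPE and 12489 to 14178 in the reference, which overlap, and their part in the levels of *Thbd*, *Tfpi* and *F3* in CPE was not tested. The brightest markers, *Kdr*, *Flt1* and *Emcn*, weigh most in these sums.

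*Pros1*, the gene of protein S, had a pair of probes on the plus strand of chromosome 16, at 62870427 to 62870486 and 62871104 to 62871163. CPE intensities were 643, 231 and 699 at the first and 1234, 645 and 1879 at the second, well above background in each mouse. The second lay at percentile 85.8 in CPE and 86.3 in the reference, and the first at 69.9 and 73.6, so each probe ranked close to its place in the other tissue. Ratios at the first were −0.01, −0.66 and −0.79, with a mean of −0.49 (SE 0.19, n = 3, interval −0.94 to −0.04, adjusted p = 0.0834). At the second they were −0.05, −0.27 and −0.11, with a mean of −0.15 (SE 0.15, n = 3, interval −0.50 to 0.21, adjusted p = 0.489), and 0.37 with median centring (adjusted p = 0.431). The interval of each excluded a 2-fold change, and no difference past the threshold was found at either.

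At an adjusted p under 0.05 with no limit on the fold, 7 of the 10 tested member probes passed, against 39.2% of all tested probes. These included both *F3* probes, which overlap, and the first and second *Tfpi* probes, which were tested through the reference. When both channels had to be well above background, 5 of 8 passed, against 46% of all. With median centring 2 passed, *F5* and *F13a1*, against 24.2% of all, and with the scanner log ratio 3, against 30.6% of all. Without mice 1, 2 and 3 in turn, 3, 4 and 6 passed, against 21.1%, 31.9% and 41.5% of all. Of the 7, *F5* was the only one above 0. The intervals of 6 member probes lay wholly inside 2-fold: both of *F3*, the fourth of *Tfpi*, the probe of *Thbd* and both of *Pros1*. Median centring raised the median ratio of all tested probes by 0.132. It also turned the split of calls over the array, from 7.09% higher and 10.2% lower to 14.5% higher and 7.13% lower. Under it *F5* was the single member past the threshold.

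**Figure D4:**
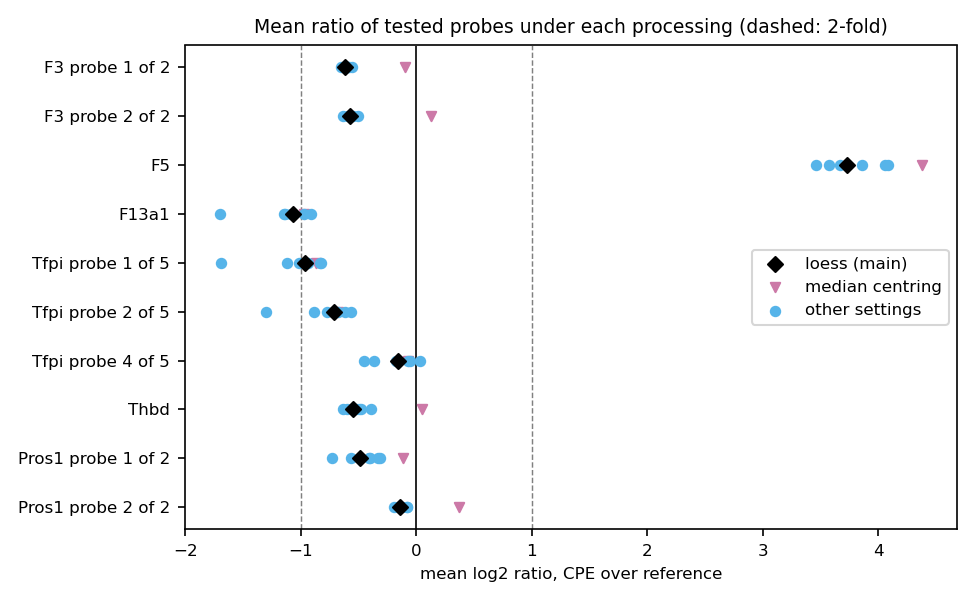
Mean log2 ratio of CPE over reference (x axis) for the 10 tested member probes (y axis) after loess (black diamonds), median centring (triangles) and the other alternative settings (circles). Dashed lines mark 2-fold. *F5* stayed between 3.46 and 4.38, while the second *F3* probe, *Thbd* and the second *Pros1* probe crossed 0 with median centring.

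Other genes of coagulation and fibrinolysis were taken from a list of 38, all on the array. By the brightest probe of each gene 24 were tested, of which 3 were higher and 5 lower in CPE and 16 were not past the threshold, with a median ratio of −0.0046. Over all 17662 genes tested in this way, 8.24% were higher and 11.5% lower. Of 14 further procoagulant genes 9 were tested, 0 were higher and 1 was lower, with a median of 0.02. The lower gene was *Vwf*, which codes for the von Willebrand factor that carries factor VIII and is made by endothelium. Its ratios were −1.70, −1.47 and −1.43, with a mean of −1.53 (SE 0.15, n = 3, adjusted p = 0.000283). The probes of *Vwf* disagreed, since another tested probe had ratios of −1.33, −0.95 and 0.21, with a mean of −0.69 (adjusted p = 0.0893).

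Of 9 further anticoagulant genes 4 were tested, 1 was higher and 2 were lower, with a median of −0.63. *Serpind1*, the gene of heparin cofactor II, which inhibits thrombin, was higher, with ratios of 1.24, 1.52 and 0.84 (mean 1.20, SE 0.18, n = 3, adjusted p = 0.00179). It was dim, with CPE intensities of 227, 197 and 405. It entered the test through the CPE channel, while the reference was well above background on 2 of 3 arrays, so its fold rests in part on a reference value near background. It was not past 2-fold with no background correction or with median centring. *Procr*, the endothelial receptor of protein C, was lower, with ratios of −1.91, −1.41 and −0.43 (mean −1.25, SE 0.27, n = 3, adjusted p = 0.00872). It was not past 2-fold without mouse 1 (−0.92) or with median centring. *Anxa5*, which codes for annexin A5 and shields membrane lipids from clotting factors, was lower, with a mean of −1.35 (SE 0.16, n = 3, adjusted p = 0.000685), and was in the high class in both channels. With median centring *Anxa5* was at −0.52 (adjusted p = 0.302).

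Of 7 fibrinolysis genes 6 were tested, 0 were higher and 1 was lower, with a median of 0.13. The lower gene was *Serpine2*, which codes for protease nexin, an inhibitor of thrombin and of plasminogen activators. Its ratios were −1.74, −2.44 and −0.70, with a mean of −1.62 (SE 0.30, n = 3, adjusted p = 0.00456). Of 4 receptors cleaved by coagulation proteases only *F2r*, the main thrombin receptor, was tested. It was lower, with ratios of −1.27, −1.08 and −1.83 (mean −1.39, SE 0.19, n = 3, adjusted p = 0.00112). With median centring *F2r* was at −0.82 (adjusted p = 0.106).

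Protein S also acts as a ligand of the receptors *Tyro3*, *Axl* and *Mertk*, a role it shares with *Gas6*. Of these 4 genes, all tested, 2 were higher in CPE. *Gas6* had CPE intensities of 42251, 28118 and 25658, lay at percentile 99.7 and had ratios of 1.88, 1.56 and 1.62 (mean 1.69, SE 0.16, n = 3, adjusted p = 0.000192). *Tyro3* had ratios of 1.65, 1.06 and 0.91 (mean 1.21, SE 0.19, n = 3, adjusted p = 0.00217), and 0.99 without mouse 1. Of its other tested probes 1 was higher as well, at 1.17, and 1 was at 0.10 (adjusted p = 0.643), above background in CPE in 1 mouse. *Axl* and *Mertk*, named here to complete the list after their values were seen, had means of −0.88 and −0.92 and were not past 2-fold. Of the ligands, then, *Gas6* was past the threshold in CPE and *Pros1* was not.

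**Figure D5:**
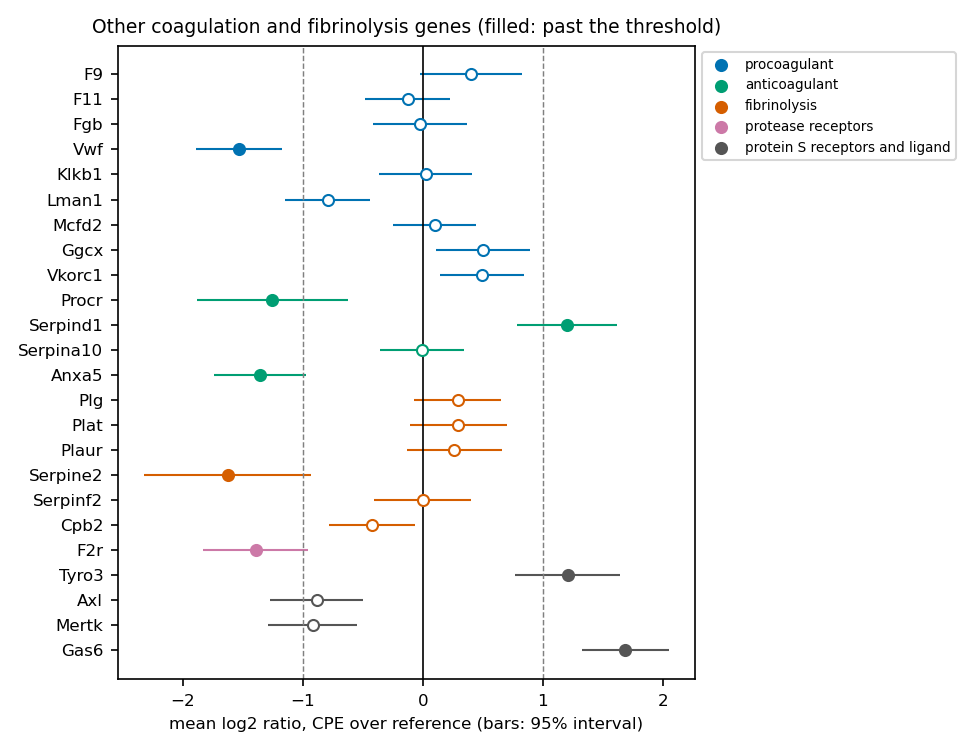
Mean log2 ratio of CPE over reference (x axis) with 95% intervals for the 24 tested genes of the wider list (y axis), coloured by group. Filled points are past the threshold and dashed lines mark 2-fold. *Gas6*, *Tyro3* and *Serpind1* lay past 2-fold to the right, and *Vwf*, *Procr*, *Anxa5*, *Serpine2* and *F2r* to the left.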

How the data were processed

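RNA of laser-dissected CPE from 3 mice was measured on 2-colour arrays against 1 common reference. The authors made the scanner tables with Agilent Feature Extraction 9.5.3.1. Per the file headers these hold the linear intensity of each spot in both channels, its local background and flags, and the log10 ratio of red over green, which served as an alternative. The deposited table of the whole series holds log2 values that the authors had normalized between arrays with Aquantile. Their rank correlation with the CPE channel was 0.9935 to 0.9957 over probes, so they are levels, and they served as an alternative ranking.

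Files were analysed with R 4.3.3 and limma 3.58.1. Spots flagged as outliers and control spots were dropped, and repeated spots of a probe averaged. For ratios, mean intensities were corrected with normexp (offset 50) and normalized by loess within arrays. A probe entered the test if 1 channel or both were well above background on every array. Testing used lmFit and eBayes against a ratio of 0, with Benjamini-Hochberg adjustment over all of them. The steps were checked on simulated data. For percentiles, log2 mean intensities were normalized with Aquantile, the mean of the mice was taken, and all probes were ranked on it, as in the study. Summed levels of a gene list are the sum over its genes of the linear level after loess and Aquantile. The number of arrays limits the precision. The mice are separate animals. Alternatives were no background correction, the scanner ratio, median centring, other filters, array weights, other rankings and leaving out each mouse.

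All members were named with every probe, further pathway genes when past the threshold, and the 3 genes with ratios nearest to those of the member probe at the highest percentile. An item of the wider list is not reported here. Members and lists were chosen with earlier results of these data known. The scanner files give coordinates on mm8, and since genes of that build were not used here, exons are left out. By accession 13 of the 16 probes matched RefSeq, and the other 3 kept the files' gene name.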

Additional observations from a re-analysis of the deposited data

How the results depend on the processing

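*F5* kept its direction and its call under all 9 alternatives to the ratio, from 3.46 to 4.38 (adjusted p 4.73e-08 to 0.00234). The ratio of *F13a1* was −0.91 with no background correction and −0.98 with median centring, both short of 2-fold, and −1.14 to −0.98 when a mouse was left out, with the call lost without mouse 1. Member probes past the threshold numbered 1 of 10 with no background correction, where 5.87% of all tested probes were higher and 8.36% lower. With median centring 1 of 10 passed, where 14.5% of all were higher and 7.13% lower. When a mouse was left out 1 to 3 of 10 passed, where 5.54% to 9.6% of all were higher and 10% to 10.9% lower. Median centring reversed the second *F3* probe (0.13), *Thbd* (0.050) and the second *Pros1* probe (0.37). Leaving out a mouse gave −0.45 to 0.029 at the fourth *Tfpi* probe. Over the array 6761 probes passed with the scanner log ratio, against 4462. When only probes well above background in CPE were ranked, *F5* lay at percentile 96.3, *F3* left the high class and 1 gene with a high probe was left. Of the 88 alternative values for members' ratios 78 kept direction and side of the threshold, as did 64 of 71 for the wider list, of which 5 genes in place of 8 were past the threshold with median centring, and 111 of 120 percentiles moved by less than the spread between mice. The cause of these differences was not tested, beyond the smaller set of probes in the last ranking. Each ratio set a CPE sample against the reference on the same array. The CPE of a mouse could not be paired with its own RPE and choroid, because the reference was 1 common RNA. All 3 CPE samples form a single group. With 3 arrays an exact sign test could not go below p = 0.25, so every call rests on the spread that limma shares between probes. Members near background, *F2*, *F7*, *F8*, *F10* and part of *Tfpi*, are limited by signal. *F13a1* passed the background flag on all arrays but was dim in CPE, so signal limits its ratio too.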
